A study of Mus musculus with 12 samples.

Results

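The 10 genes described here are targets of the transcription factor SRF or of the co-activator YAP1, together with Srf itself: Cnn1, Cnn2, Cnn3, Acta2, Tagln, Myl9, Ctgf, Cyr61, Ankrd1 and Srf. They were looked up by gene symbol, and all 10 were found among the 16288 genes listed in the 12 libraries. The set was selected on the level of Cnn1, which was among those most reduced by the compound PFI-3 in proliferating cells. The comparison of proliferating cells therefore chose the genes and is given below as values, with no test. All 10 genes passed the low-count filter that left 12545 genes for testing. The series compares PFI-3 with its vehicle in C2C12 cells, an immortalized mouse myoblast line, before and during differentiation.

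SRF binds a short DNA element called the CArG box and switches on genes of the actin cytoskeleton when its partners MRTF-A and MRTF-B (genes Mkl1 and Mkl2) enter the nucleus. Those partners are held back by unpolymerized actin, so the activity of SRF follows actin assembly. YAP1 and its relative TAZ (gene Wwtr1) act through the TEAD factors and are restrained by the Hippo kinases. Many contractile and matricellular genes respond to both arms, and in skeletal myoblasts several of them mark the proliferating, well-spread cell. PFI-3 is a ligand of the bromodomains in SMARCA2 and SMARCA4, ATPases that remodel chromatin, and in PBRM1.

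Every library came from C2C12 cells that received either the vehicle DMSO or 50 uM PFI-3, beginning 12 h before harvest or before induction of differentiation. Proliferating cells, labelled GM, were kept in 10% serum. Differentiating cells, labelled DM, were switched to 2% serum with 2 ug/ml insulin, received fresh DMSO or PFI-3 every 24 h, and were harvested after 24 h or 48 h. Each of the 6 groups has 2 libraries, A and B, which the submitters call biological duplicates. All values come from 1 cell line, and the labels do not say what the letters stand for, so p-values measure only the spread between these libraries.

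The total expected count of a library lay between 12576374 and 13658352. The level of a gene is given as CPM, its count scaled by the TMM-adjusted library total, and levels of different genes are compared only as FPKM, which also corrects for transcript length. All 7 myoblast markers looked up (Myod1, Myf5, Des, Itga7, Cdh15, Pax7 and Chrna1) were detected. Their summed level, in CPM of the unadjusted total as for all marker lists here, was 1169 and 1280 in GM with DMSO against 785 and 927 with PFI-3. It was 3415 and 3429 against 2342 and 2304 at DM 24h, and 5534 and 5446 against 4846 and 4753 at DM 48h. The sum was thus lower with PFI-3 without overlap at each stage, but not every gene followed it. Myf5 was higher with PFI-3 at DM 24h (48.1 and 52.9 against 42.9 and 38.9), and Myod1, Myf5 and Pax7 overlapped in GM. The remaining comparisons were lower with PFI-3 without overlap. Summed over 7 sarcomeric genes (Myog, Myh3, Ckm, Acta1, Actc1, Tnnt3 and Mybph), the level was 6.30 to 11.3 CPM in the 4 GM libraries. It was 3079 and 3056 at DM 24h with DMSO, 1204 and 1218 with PFI-3, 21600 and 21580 at DM 48h with DMSO, and 14530 and 14430 with PFI-3. Of 5 defining smooth muscle genes, Myh11 held at most 5 counts and Myocd at most 11 counts in any library, while Smtn, Lmod1 and Actg2 were expressed. The summed levels were at most 1.72 for 5 endothelial markers, 9.545 for 5 leukocyte markers and 0.220 for 5 adipocyte markers. The sum of 5 fibroblast markers was 28.1 and 27.15 at DM 24h with DMSO against 40.8 and 43.8 with PFI-3, and 30.1 and 30.45 against 49.6 and 44.45 at DM 48h, higher with PFI-3 without overlap. In GM it was 6.54 and 11.5 with DMSO and 11.46 and 18.65 with PFI-3, which overlapped. The part of the myoblast, sarcomeric and fibroblast lists in the results below was not tested.

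The 300-base promoter windows of these genes, from 250 bases before to 50 bases after the annotated start, show which of them carry the DNA elements that name the group. RefSeq windows of GRCm38.p6, the mm10 assembly named in the submitters' processing notes, were matched for 8 of the 10 genes, and Tagln and Ctgf were not in the table. The CArG box was searched as a pair of C, 6 bases that are each A or T, and a pair of G. It was found in 1.63% of 32851 windows of all genes and in 3 of the 8. A CArG-like element, in which exactly 1 of the 6 central bases is G or C, was found in 8.5% of all windows and in 2 of the 8. The TEAD motif GGAATG, on either strand, was found in 14.7% of all windows and in 3 of the 8. No matches overlapped one another. The 7 windows below are printed 5′ to 3′ along the gene, with matches in capitals, because they hold every match found plus the window of Cnn1, which holds none. The Srf window lies at chr17:46556113-46556412 (minus strand), Cnn2 at chr10:79988350-79988649 (plus), Myl9 at chr2:156775214-156775513 (plus), Acta2 at chr19:34255324-34255623 (minus), Cyr61 at chr3:145649936-145650235 (minus), Ankrd1 at chr19:36119795-36120094 (minus) and Cnn1 at chr9:22099003-22099302 (plus).
Srf: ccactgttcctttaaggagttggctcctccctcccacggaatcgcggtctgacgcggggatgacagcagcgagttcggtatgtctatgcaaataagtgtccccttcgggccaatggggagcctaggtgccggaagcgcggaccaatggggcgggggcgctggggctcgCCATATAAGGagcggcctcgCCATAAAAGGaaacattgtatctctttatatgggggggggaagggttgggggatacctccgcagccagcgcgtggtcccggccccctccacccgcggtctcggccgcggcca
Cnn2: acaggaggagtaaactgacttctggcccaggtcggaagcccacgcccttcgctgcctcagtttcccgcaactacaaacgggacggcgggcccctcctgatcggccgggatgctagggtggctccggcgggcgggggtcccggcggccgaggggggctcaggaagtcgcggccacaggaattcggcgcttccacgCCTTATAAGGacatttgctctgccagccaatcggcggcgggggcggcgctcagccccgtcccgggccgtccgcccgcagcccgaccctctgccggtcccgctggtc
Myl9: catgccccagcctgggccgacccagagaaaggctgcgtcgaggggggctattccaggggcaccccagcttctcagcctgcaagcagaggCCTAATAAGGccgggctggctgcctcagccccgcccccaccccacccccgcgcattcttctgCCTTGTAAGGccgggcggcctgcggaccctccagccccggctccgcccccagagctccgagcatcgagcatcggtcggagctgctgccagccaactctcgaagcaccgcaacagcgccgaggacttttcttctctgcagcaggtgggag
Acta2: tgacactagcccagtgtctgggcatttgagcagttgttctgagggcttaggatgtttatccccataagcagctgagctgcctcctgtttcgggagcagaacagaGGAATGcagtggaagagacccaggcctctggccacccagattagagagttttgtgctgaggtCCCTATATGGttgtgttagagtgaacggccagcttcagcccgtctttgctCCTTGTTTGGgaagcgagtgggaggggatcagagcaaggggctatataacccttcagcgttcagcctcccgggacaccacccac
Cyr61: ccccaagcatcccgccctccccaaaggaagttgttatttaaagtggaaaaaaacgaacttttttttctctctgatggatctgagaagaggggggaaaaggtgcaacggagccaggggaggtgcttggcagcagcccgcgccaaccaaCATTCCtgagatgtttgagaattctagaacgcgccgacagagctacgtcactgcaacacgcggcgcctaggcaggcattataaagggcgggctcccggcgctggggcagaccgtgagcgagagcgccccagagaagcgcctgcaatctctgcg
Ankrd1: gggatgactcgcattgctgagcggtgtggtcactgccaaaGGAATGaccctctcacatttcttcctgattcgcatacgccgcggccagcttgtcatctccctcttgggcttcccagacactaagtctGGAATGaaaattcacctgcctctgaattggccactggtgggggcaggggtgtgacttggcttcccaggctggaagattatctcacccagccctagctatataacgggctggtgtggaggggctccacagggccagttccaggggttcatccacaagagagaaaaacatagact
Cnn1: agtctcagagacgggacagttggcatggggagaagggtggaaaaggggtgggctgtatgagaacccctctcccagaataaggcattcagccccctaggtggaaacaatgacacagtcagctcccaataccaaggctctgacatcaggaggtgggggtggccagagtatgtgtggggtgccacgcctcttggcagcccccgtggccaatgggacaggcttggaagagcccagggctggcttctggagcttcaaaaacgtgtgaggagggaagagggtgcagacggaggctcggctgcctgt

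Srf carried a pair of CArG boxes, beginning 82 and 62 bases before its start. Cnn2 had a CArG box at 56 bases and Myl9 at 161 bases, and Myl9 also had a CArG-like element at 99 bases. Acta2 held CArG-like elements at 84 and 34 bases and a TEAD motif at 146 bases. The TEAD motif stood at 103 bases in Cyr61, on the opposite strand, and at 210 and 123 bases in Ankrd1. Neither Cnn1 nor Cnn3 held a match in this window, which says only that these letters are not there. A match is a description of sequence and was not measured as a binding site.

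**Figure D1:**
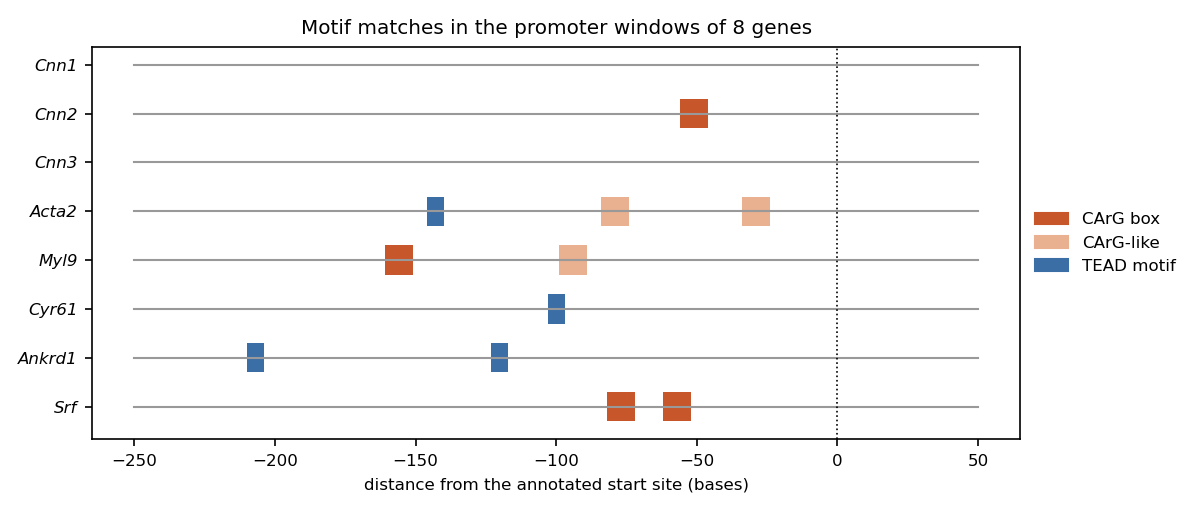
Matches to the CArG box (dark orange), the CArG-like element (light orange) and the TEAD motif (blue) in the promoter windows of 8 genes, against distance in bases from the annotated start site (dotted line). CArG boxes lie in Srf, Cnn2 and Myl9, TEAD motifs in Acta2, Cyr61 and Ankrd1, and the Cnn1 and Cnn3 windows are empty.

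The 2 GM DMSO libraries differed widely for these genes, and library A was the higher for 10 of 10. Tagln (transgelin, an actin-bundling protein) stood at 752 CPM in A and 180 CPM in B, a 4.19-fold difference. Ctgf differed 3.49-fold, Cnn1 3.46-fold, Acta2 2.70-fold and Myl9 2.35-fold. Cnn3 was nearly equal in both, with a 1.01-fold difference. The median log2 ratio of A to B was 0.95 over the 10 genes and 0.02 over a reference of 10571 genes, of which 5567 were higher in A. The reference genes averaged at least 50 counts over the 12 libraries and were detected in both GM DMSO libraries. Only 0.407% of those genes were as far apart as Tagln, 0.577% as Ctgf, 0.587% as Cnn1, 1.05% as Acta2 and 1.57% as Myl9. By contrast, 25.6% were as far apart as Srf and 94.9% as Cnn3. These libraries entered the choice of the genes, and a choice by a fall in GM can favour a gene that is high in 1 GM DMSO library. The shares are therefore descriptions and carry no test.

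A was also the higher for 6 of the 10 genes in the GM PFI-3 libraries, where A exceeded B by 1.24 on the log2 scale for Tagln, 0.80 for Cnn1 and 0.58 for Acta2. Myl9 went the other way there, at -0.32. Across the genes that met the same count rule, the SD of the log2 ratio was 0.387 in GM DMSO and 0.357 in GM PFI-3. It was 0.148 to 0.158 in the 4 DM groups. In the DM groups the 2 libraries differed by at most 0.19 on the log2 scale for the other 9 genes, and by more for Cnn1, with counts of 4 and 12 in the DM 24h PFI-3 libraries and of 42 and 23 with DMSO. Of the other SRF and MRTF targets, 24 of 29 were higher in A than in B in GM DMSO, with a median log2 ratio of 0.34. The other YAP and TAZ targets split 9 to 9, with a median of 0.01.

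**Figure D2:**
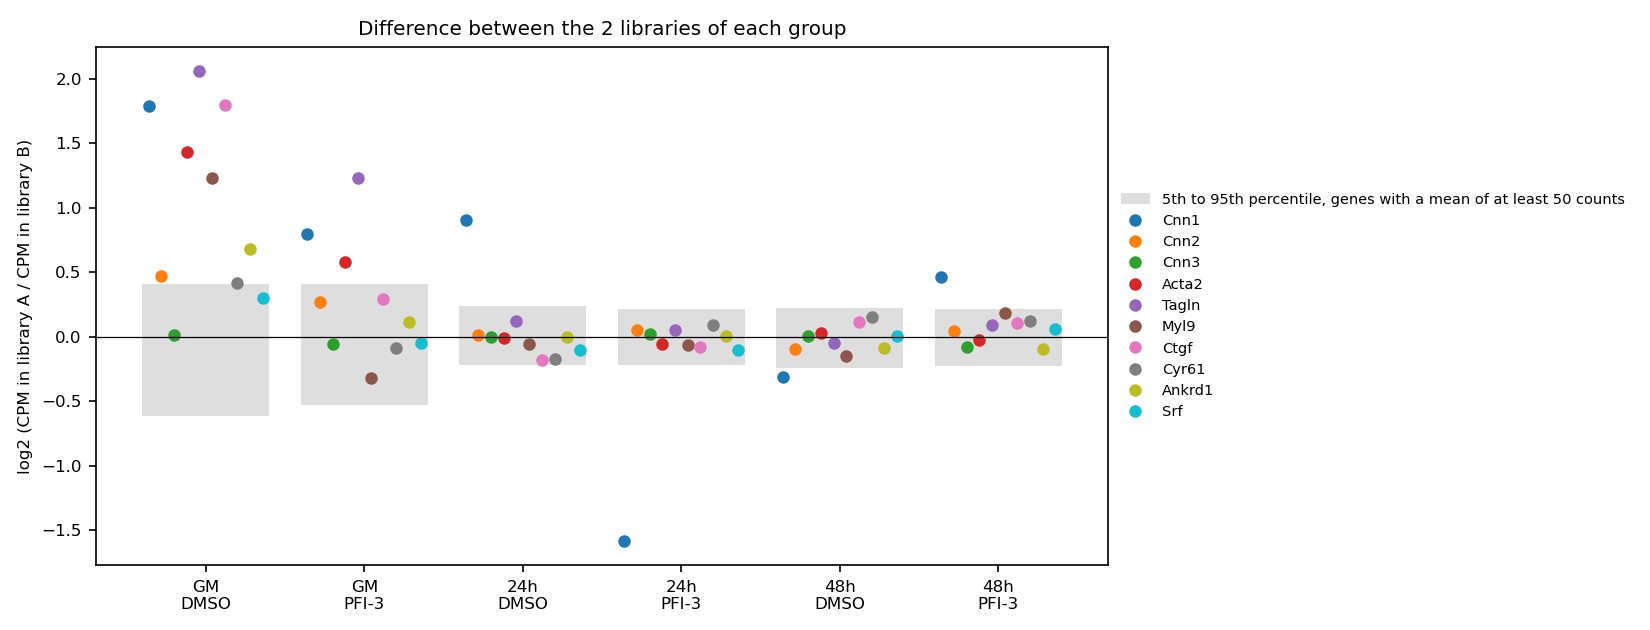
Log2 ratio of CPM in library A to CPM in library B for each of the 10 genes (coloured points) in the 6 groups, with the 5th to 95th percentile of all genes that averaged at least 50 counts (grey). In GM DMSO all 10 points lie above 0, up to 2.07 for Tagln, while in the DM groups all but Cnn1 lie within 0.19 of 0.

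In GM, PFI-3 went with lower group means in CPM for all 10 genes. By FPKM the mean of Cyr61 was not lower, at 189.8 with DMSO and 191.7 with PFI-3. For 6 of the 10 genes both PFI-3 libraries lay below both DMSO libraries: Cnn1, Cnn2, Cnn3, Acta2, Myl9 and Srf. Over all tested genes 24.0% were lower without overlap and 21.4% higher, and because this contrast chose the genes nothing is read from the count. The fitted log2 fold changes were -1.98 for Cnn1, -1.44 for Myl9 and -1.36 for Acta2. They were -1.26 for Tagln and -1.09 for Ctgf, whose groups overlapped. The remaining 5 genes lay between -0.54 for Cnn3 and -0.09 for Cyr61.

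These GM differences depended on which DMSO library was the reference. Without GM DMSO library A, Tagln stood at 0.12, Ctgf at 0.08, Cyr61 at 0.13 and Ankrd1 at 0.07, so 4 of the 10 were no longer below 0. Cnn1 moved from -1.98 to -0.83, Acta2 to -0.47 and Myl9 to -0.70. That fit set GM DMSO library B against both GM PFI-3 libraries. Between the B libraries alone, Tagln had 180 CPM with DMSO and 116 with PFI-3, and Ctgf 40.0 and 38.0, so both were still lower. Cyr61 (330.4 and 373.7) and Ankrd1 (307.5 and 310.2) were higher with PFI-3 there. Between the A libraries alone, these 4 genes were all lower with PFI-3. Tagln had 752 CPM with DMSO and 273 with PFI-3, Ctgf 139.5 and 46.4, Cyr61 441 and 351, and Ankrd1 492 and 335. Without GM DMSO library B, Cnn1 stood at -2.61, Tagln at -1.95 and Acta2 at -1.91. Cnn3 stayed at -0.53 without A and -0.54 without B. The sarcomeric list was at 11.3 and 6.30 CPM with DMSO and 9.425 and 10.65 with PFI-3 in GM, and the smooth muscle list was at 369 and 211 with DMSO and 196 and 184 with PFI-3. Their part in the result was not tested.

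**Figure D3:**
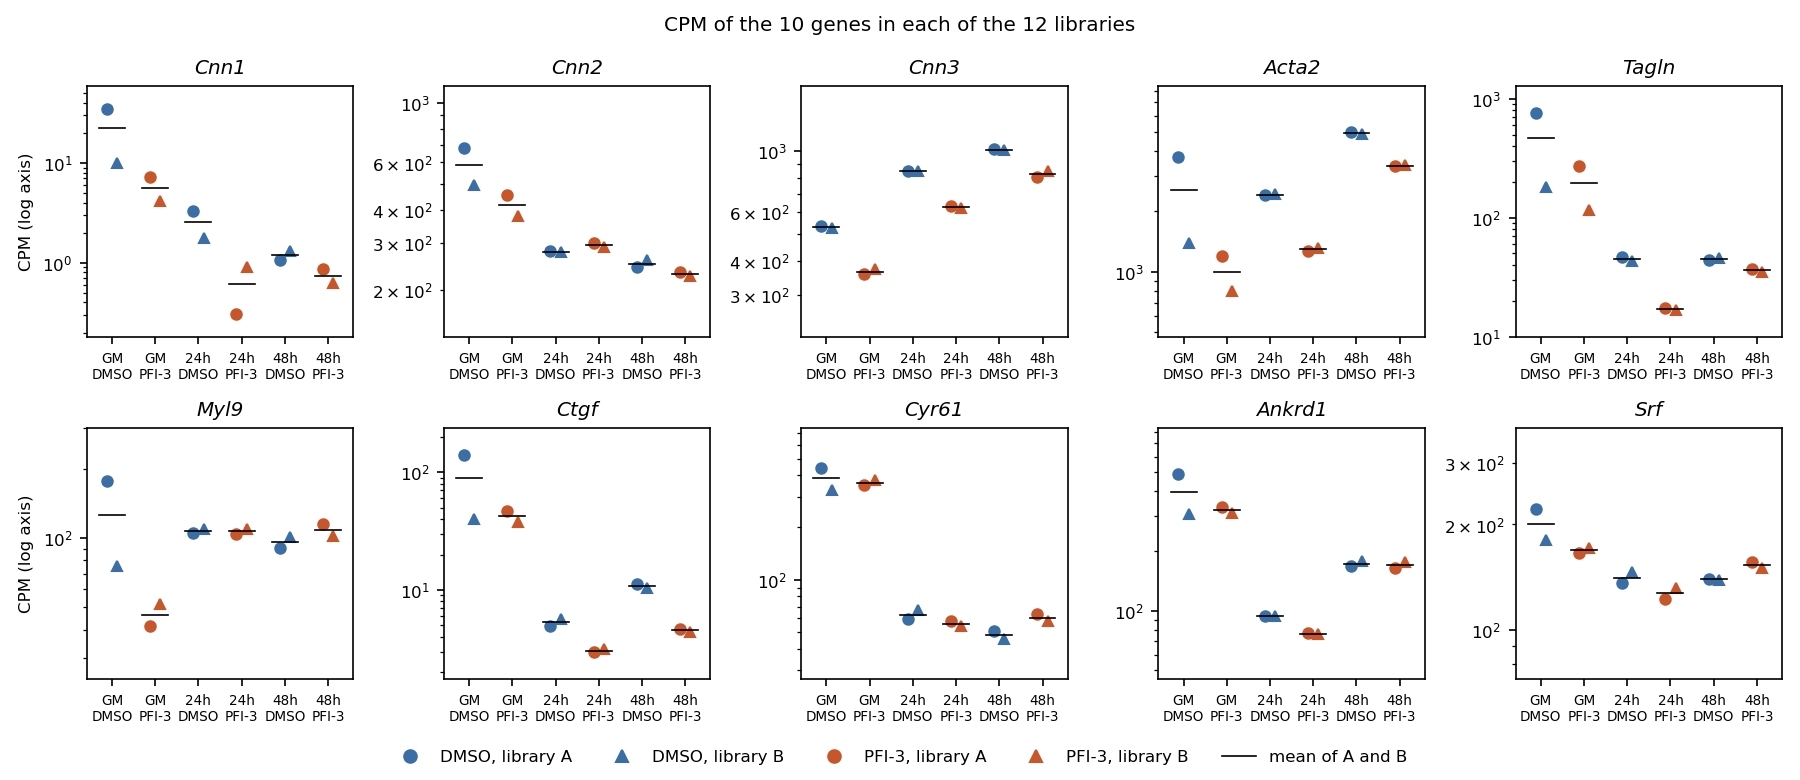
CPM on log axes for each gene in the 12 libraries (blue DMSO, orange PFI-3; circles A, triangles B; bars, mean of A and B), with a separate axis for each gene. The GM DMSO circle stands far above its triangle for Cnn1, Acta2, Tagln, Myl9 and Ctgf, while A and B nearly coincide in DM for most genes.

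The calponins, actin-binding proteins that share a domain layout but differ in tissue, behaved differently from one another. Cnn1, the smooth muscle calponin, had 34.7 and 10.0 CPM in GM DMSO (libraries A and B) and 7.20 and 4.13 CPM in GM PFI-3. At DM 24h Cnn1 had 3.33 and 1.78 CPM with DMSO and 0.304 and 0.915 CPM with PFI-3. At DM 48h Cnn1 had 1.06 and 1.31 CPM with DMSO and 0.862 and 0.625 CPM with PFI-3. Both PFI-3 libraries were below both DMSO libraries at every stage, on counts that reached only 4 to 42 in DM. The DM 24h difference was 4.19-fold (log2 -2.05). On all 12 libraries its standard error (SE) was 0.90, with an edgeR adjusted p of 0.12. On the 8 DM libraries the SE was 0.43 and the edgeR adjusted p 0.000131. In the 12-library fit the log2 difference was -1.47 (2.765-fold, adjusted p = 0.417) without DM 24h PFI-3 library A and -3.03 (8.15-fold, adjusted p = 0.172) without library B. At DM 48h the log2 difference of -0.66 did not pass in either fit (adjusted p = 0.675 and 0.276).

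Cnn3, the acidic calponin of non-muscle cells, was the only gene of the 10 to pass the test at both DM times in the fit of 12 libraries. It had 533 and 527 CPM in GM DMSO and 358 and 372 CPM in GM PFI-3. At DM 24h Cnn3 had 847 and 846 CPM with DMSO and 632 and 623 CPM with PFI-3. At DM 48h Cnn3 had 1013 and 1007 CPM with DMSO and 802 and 846 CPM with PFI-3. The groups did not overlap at any stage, and PFI-3 was the lower each time. Cnn3 fell by 0.43 on the log2 scale at DM 24h (SE 0.06, edgeR adjusted p = 0.00022) and fell by 0.29 at DM 48h (SE 0.06, adjusted p = 0.00209). Both calls held in 22 of 22 alternatives. Cnn3 was also the only one of the 10 that was higher without overlap at DM 24h than in GM with DMSO, at 1.60-fold.

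Cnn2, the widely expressed calponin, had 682 and 493 CPM in GM DMSO and 455 and 378.5 CPM in GM PFI-3. At DM 24h Cnn2 had 279 and 276.5 CPM with DMSO and 299 and 289 CPM with PFI-3, so here the PFI-3 libraries were the higher. At DM 48h Cnn2 had 243 and 259 CPM with DMSO and 234 and 226 CPM with PFI-3. The log2 difference at DM 24h was 0.08 (SE 0.13, edgeR adjusted p = 0.69). At DM 48h it was -0.13, with an adjusted p of 0.499 on 12 libraries and 0.0138 on the 8 DM libraries.

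Acta2, smooth muscle alpha-actin, which skeletal myoblasts also make early in differentiation, was the most abundant of the 10 genes in all 6 groups by FPKM. Its DM libraries were nearly identical within groups. It had 3735 and 1382 CPM in GM DMSO and 1191 and 799 CPM in GM PFI-3. At DM 24h Acta2 had 2414 and 2434 CPM with DMSO and 1267 and 1314 CPM with PFI-3, and at DM 48h 4962 and 4858 CPM with DMSO and 3346 and 3407 CPM with PFI-3. The PFI-3 libraries were the lower at every stage. At DM 24h the difference was 1.88-fold (log2 -0.91), with an SE of 0.32 and edgeR adjusted p of 0.0582 on 12 libraries, and an SE of 0.04 and adjusted p of 2.06e-23 on the 8 DM libraries. At DM 48h it was 1.45-fold (log2 -0.54), with adjusted p of 0.236 and 1.89e-16. The sarcomeric list was lower with PFI-3 at the same times (1204 and 1218 against 3079 and 3056 at DM 24h), and its part in the result was not tested. In these bulk libraries fewer cells of a type and less RNA per cell cannot be told apart.

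Tagln had 752 and 180 CPM in GM DMSO and 273 and 116 CPM in GM PFI-3, so the lower DMSO library lay between the PFI-3 libraries. At DM 24h Tagln had 46.9 and 43.1 CPM with DMSO and 17.4 and 16.8 CPM with PFI-3. At DM 48h Tagln had 44.5 and 45.9 CPM with DMSO and 37.3 and 34.9 CPM with PFI-3. In DM the PFI-3 libraries were the lower at both times, by 2.63-fold at DM 24h and 1.25-fold at DM 48h. The DM 24h log2 difference of -1.39 had an SE of 0.60 and an adjusted p of 0.115 in the edgeR fit of 12 libraries, and an SE of 0.08 and adjusted p of 1.16e-17 on the 8 DM libraries. The DM 48h adjusted p was 0.716 on 12 libraries and 0.000338 on 8.

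Myl9, the regulatory light chain of smooth muscle and non-muscle myosin, was separated by PFI-3 in GM but not at DM 24h. It had 177 and 75.5 CPM in GM DMSO and 41.3 and 51.7 CPM in GM PFI-3. At DM 24h Myl9 had 105 and 109 CPM with either treatment, a log2 difference of -0.00 (SE 0.27, edgeR adjusted p = 0.992; SE 0.06 and 0.994 on the 8 DM libraries). At DM 48h Myl9 had 90.9 and 101 CPM with DMSO and 116 and 102 CPM with PFI-3. That log2 difference of 0.18 had an adjusted p of 0.671 on 12 libraries and 0.0111 on 8.

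Ctgf and Cyr61 encode the matricellular proteins CCN2 and CCN1, the customary readouts of YAP1 activity, and they parted at DM 48h. Ctgf had 139.5 and 40.01 CPM in GM DMSO and 46.4 and 38.0 CPM in GM PFI-3. At DM 24h Ctgf had 4.99 and 5.65 CPM with DMSO and 2.97 and 3.13 CPM with PFI-3. At DM 48h Ctgf had 11.1 and 10.3 CPM with DMSO and 4.70 and 4.37 CPM with PFI-3. Ctgf was thus lower with PFI-3 in every DM library, by 1.75-fold at DM 24h and 2.36-fold at DM 48h, while in GM the groups overlapped. The log2 differences were -0.80 (SE 0.71, edgeR adjusted p = 0.449) and -1.24 (SE 0.59, adjusted p = 0.146) on 12 libraries. Both passed on the 8 DM libraries, with adjusted p of 0.00161 and 4.72e-08 in that order.

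Cyr61 had 441 and 330.4 CPM in GM DMSO and 351 and 374 CPM in GM PFI-3, which overlapped. At DM 24h Cyr61 had 59.0 and 66.5 CPM with DMSO and 57.6 and 53.9 CPM with PFI-3. At DM 48h Cyr61 had 50.3 and 45.2 CPM with DMSO and 63.0 and 57.8 CPM with PFI-3. The PFI-3 libraries were the lower at DM 24h and the higher at DM 48h. The log2 differences were -0.17 (SE 0.13, edgeR adjusted p = 0.364) and 0.34 (SE 0.13, adjusted p = 0.0711), and on the 8 DM libraries the adjusted p was 0.0482 and 0.000146.

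Ankrd1, a sarcomeric stress-response protein that is also a YAP1 target, had 492 and 307.5 CPM in GM DMSO and 335 and 310.2 CPM in GM PFI-3. At DM 24h Ankrd1 had 93.7 and 94.0 CPM with DMSO and 76.9 and 76.6 CPM with PFI-3. At DM 48h Ankrd1 had 167.5 and 178 CPM with DMSO and 164 and 175 CPM with PFI-3. The groups separated at DM 24h, with PFI-3 the lower, and overlapped in GM and at DM 48h. The DM 24h log2 difference was -0.29, with an edgeR adjusted p of 0.222 on 12 libraries and 4.44e-05 on the 8 DM libraries. At DM 48h it was -0.03 (adjusted p = 0.926 and 0.659).

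The group means of Srf itself ran from 127.5 to 201 CPM, a ratio of 1.58, which was the smallest such ratio among the 10 genes. It had 222 and 180.3 CPM in GM DMSO and 166 and 172 CPM in GM PFI-3. At DM 24h Srf had 136 and 146 CPM with DMSO and 123 and 132 CPM with PFI-3, and at DM 48h 139.8 and 139 CPM with DMSO and 157 and 150.1 CPM with PFI-3. In GM and at DM 24h PFI-3 was the lower, and by DM 48h the higher, each time without overlap and by at most 1.19-fold. Srf had a log2 difference of -0.14 at DM 24h (SE 0.09, edgeR adjusted p = 0.273). It was 0.14 at DM 48h (SE 0.09, adjusted p = 0.291). On the 8 DM libraries the adjusted p was 0.0223 and 0.0245.

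Counted over the 10 genes at DM 24h, 8 were lower with PFI-3 without overlap and 1, Cnn2, was higher, against 35.2% lower and 35.3% higher over all tested genes. In the edgeR fit of 12 libraries 1 of the 10 passed the test at an adjusted p under 0.05, against 23.6% of all tested genes, of which 11.4% were lower. In the fit of the 8 DM libraries 8 of the 10 passed, all lower, against 44.7% of all genes in either direction and 21.8% lower. At DM 48h 6 were lower and 3 higher without overlap, against 35.9% and 35.4%. There, 1 of 10 passed on 12 libraries, lower (27.4% of all genes, 14.0% lower), and 8 of 10 on the 8 DM libraries (47.2%), of which 5 were lower and 3 higher (24.3% and 22.9% of all genes). The fitted differences themselves barely moved between the fits, and the SE of Acta2 at DM 24h was 0.32 with the GM libraries in the fit and 0.04 without them. The count of calls rose at both DM times with either GM DMSO library left out, and at DM 24h with either GM PFI-3 library left out. The share of all tested genes called in those fits is not given, so the rises are not read as particular to the 10 genes.

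**Figure D4:**
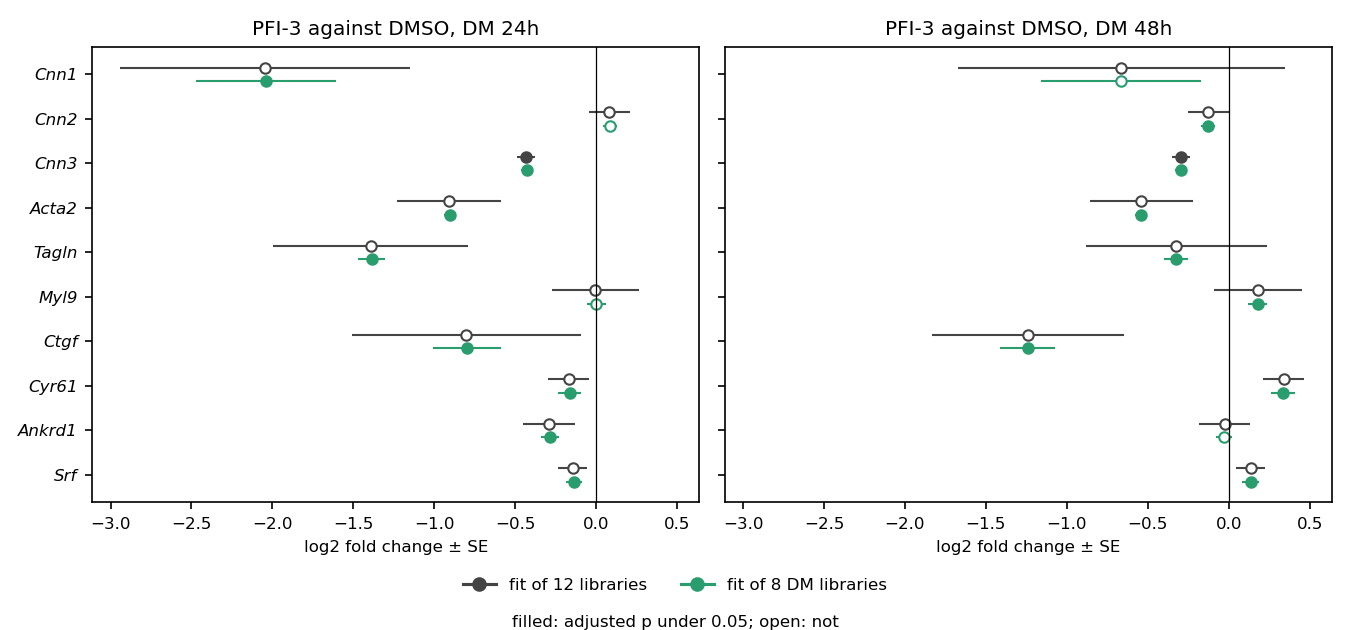
Log2 fold change of PFI-3 against DMSO (points) with SE (lines) for the 10 genes at DM 24h and DM 48h, from the fit of all 12 libraries (grey) and of the 8 DM libraries (green); filled points have an adjusted p under 0.05. The points of both fits coincide while the grey lines are longer, and only Cnn3 is filled in both fits at both times.

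Whether the PFI-3 effect itself differed between DM 48h and DM 24h was tested as an interaction. Cells at DM 48h had also been in PFI-3 for longer, so time in differentiation and length of exposure cannot be told apart. In the edgeR fit of 12 libraries 0 of the 10 genes passed, against 12.1% of all genes, and 2 had an unadjusted p under 0.05. DESeq2 called 1, limma on log2(FPKM + 1) called 1, and limma on log2(FPKM + 0.1) called 0. Cyr61 came nearest, with a log2 difference of 0.51 (SE 0.18, adjusted p = 0.0918). More of the 10 passed without GM DMSO library A, or without B, but the share of all tested genes in those fits is not given. In the fit of the 8 DM libraries 6 of 10 passed, 5 higher and 1 lower, against 33.6% of all genes, 17.1% higher and 16.5% lower. Tagln (1.06), Acta2 (0.36), Cyr61 (0.50), Ankrd1 (0.26) and Srf (0.27) had a less negative or more positive effect at DM 48h, and Cnn2 (-0.22) a more negative one.

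With DMSO alone, 7 of the 10 genes were lower at DM 24h than in GM without overlap and 1, Cnn3, was higher, against 39.1% and 40.9% of all tested genes. This uses the GM DMSO libraries that chose the genes and was not tested. The group mean was 16.9-fold lower for Ctgf, 10.35-fold lower for Tagln, 8.76-fold lower for Cnn1, 6.15-fold lower for Cyr61 and 4.26-fold lower for Ankrd1. Against GM DMSO library B alone the same folds were 7.52 for Ctgf, 3.99 for Tagln, 3.93 for Cnn1, 5.27 for Cyr61 and 3.28 for Ankrd1, and against library A alone 26.2, 16.7, 13.6, 7.03 and 5.24. Cnn2 was 2.11-fold and Srf 1.43-fold lower, and the GM libraries of Acta2 and Myl9 spanned their DM 24h values.

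From DM 24h to DM 48h with DMSO, 4 of 10 genes were higher and 4 lower without overlap, against 39.9% and 39.5% of all tested genes. In the edgeR fit of 12 libraries 3 rose and 1 fell, against 48.1% of all genes called, 24.2% higher and 23.9% lower. Acta2 rose 2.03-fold (log2 1.02, SE 0.32, adjusted p = 0.0196), Ankrd1 rose 1.84-fold (log2 0.88, SE 0.16, adjusted p = 0.000703) and Cnn3 rose 1.19-fold (adjusted p = 0.00253). Cyr61 fell by 0.39 on the log2 scale (SE 0.13, adjusted p = 0.0238). The rise of Acta2 accompanied the rise of the sarcomeric list from 3079 and 3056 to 21600 and 21580 CPM, whose part in it was not tested. On the 8 DM libraries 8 of 10 passed, 4 in each direction, against 63.1% of all genes, 32.0% higher and 31.1% lower, with the addition of Ctgf (1.01 on the log2 scale), Cnn1 (-1.10), Myl9 (-0.16) and Cnn2 (-0.14). Tagln and Srf did not pass in either fit. The call of Acta2 was lost with any 1 of the 4 DMSO libraries compared left out. That of Cyr61 was lost without DM 24h DMSO library B or DM 48h DMSO library B.

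Levels of different genes were compared as FPKM. With DMSO in GM the group means ran from Acta2 (976) through Cnn2 (327), Tagln (292.5), Cnn3 (265), Ankrd1 (227), Cyr61 (189.8), Myl9 (119.8), Srf (48.1) and Ctgf (36.4) to Cnn1 (11.1). Neighbours from Cnn2 to Cyr61 overlapped in the values of their libraries, as did Srf with Ctgf and Ctgf with Cnn1. At DM 24h with DMSO the order was Acta2 (969.9), Cnn3 (439), Cnn2 (161), Myl9 (107), Ankrd1 (55.5), Srf (35.03), Cyr61 (32.1), Tagln (29.8), Ctgf (2.27) and Cnn1 (1.34). There Srf (33.88 and 36.2 FPKM) overlapped Cyr61 (30.3 and 33.93), which overlapped Tagln (31.1 and 28.45), and the other neighbours did not overlap.

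Other genes of the pathway were counted from lists of textbook targets and regulators. Of 30 tested SRF and MRTF targets, 3 fell and 2 rose with PFI-3 at DM 24h, and 8 fell and 2 rose at DM 48h, in the edgeR fit of 12 libraries. Of all tested genes 23.6% passed at DM 24h, 11.4% lower, and 27.4% at DM 48h, 14.0% lower. The median log2 fold change was -0.17 and -0.15, against -0.00 and 0.00 for all tested genes. On the 8 DM libraries 15 were lower and 5 higher at DM 24h, and 16 lower and 7 higher at DM 48h. In that fit 44.7% of all genes passed at DM 24h, 21.8% lower, and 47.2% at DM 48h, 24.3% lower and 22.9% higher. In GM, 20 of the 30 were lower with PFI-3 without overlap and the other 10 overlapped, beside 24.0% of all genes lower and 21.4% higher. That contrast chose the 10 genes and uses GM DMSO library A, in which 24 of 29 of these targets exceeded library B, so nothing is read from the GM count. More genes of the list passed at DM 24h with any 1 GM library left out. Fewer passed at a DM time with any 1 library of that time left out. The share of all tested genes that passed in these fits is not given.

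At DM 24h the falls were Tpm4 (a tropomyosin, 722 and 724 CPM with DMSO against 475 and 496 with PFI-3, log2 -0.58, adjusted p = 0.00291), Pdlim7 (an actin-associated LIM protein, -0.48) and the immediate early gene Ier2 (-0.39). The rises were Mylk, the myosin light chain kinase (0.69, adjusted p = 0.00732), and the LIM protein gene Csrp2 (0.32). At DM 48h the falls were led by Egr2 (-1.43, adjusted p = 0.00944) and Junb (-0.88, adjusted p = 3.37e-05), both immediate early genes, and Lmod1, an actin nucleator (-0.81). Mylk (0.47) and Cald1, an actin and myosin binder (0.24), rose at that time. The signs within the list were thus mixed. The calls of Tpm4 and Junb held in 22 of 22 alternatives, whereas those of Pdlim7, Ier2, Mylk, Csrp2, Egr2, Lmod1 and Cald1 were lost in some, with adjusted p up to 0.209.

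The 20 other YAP and TAZ targets moved both ways. At DM 24h 5 rose and 4 fell, and at DM 48h 6 rose and 3 fell, with medians of 0.05 and 0.04, where 23.6% and 27.4% of all genes passed. Crim1, a transmembrane protein that binds BMPs, rose from 11.2 and 11.2 CPM to 26.2 and 25.2 CPM at DM 24h (log2 1.20, edgeR adjusted p = 7.78e-05) and by 1.28 at DM 48h. F3, tissue factor, had log2 rises of 0.91 and 1.575, and Foxf2, a forkhead transcription factor, of 0.83 at DM 24h. Ccdc80, an extracellular matrix protein, fell from 212 and 206 CPM to 81.0 and 84.7 CPM at DM 24h (log2 -1.33, adjusted p = 0.000687) and also at DM 48h (-0.865). Igfbp3, which binds insulin-like growth factors, had log2 changes of -0.69 and -0.49 and passed at both times. Tgfb2, a TGF-beta ligand, passed at DM 24h (-0.69), and the RNA-binding protein gene Rbms3 (-0.52) and the phosphatase gene Ptpn14 (0.33) passed at DM 48h. In 22 of 22 alternatives Crim1 and F3 kept both calls, Foxf2 and Ccdc80 that at DM 24h and Ptpn14 that at DM 48h. Those of Igfbp3, Tgfb2 and Rbms3, and of Ccdc80 at DM 48h, were lost in some, with adjusted p up to 0.209. Fewer genes of the list passed at DM 24h without DM 24h PFI-3 library A, or without library B. The share of all tested genes in those fits is not given.

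Among 23 tested cofactors and upstream kinases, 2 rose and 1 fell at DM 24h, and 6 passed at DM 48h, all lower, with medians of 0.01 and -0.03. The DM 24h count lies below the 23.6% of all tested genes that passed, 11.4% lower. At DM 48h 27.4% of all tested genes passed, 14.0% lower. Tead4, a TEAD factor of differentiating muscle, fell from 49.3 and 56.0 CPM to 24.6 and 23.0 CPM at DM 24h (log2 -1.15, edgeR adjusted p = 2.19e-05) and from 165 and 154 CPM to 108 and 104 CPM at DM 48h (-0.58). Yap1 rose at DM 24h from 133 and 136.5 CPM to 156 and 163 CPM (0.25, adjusted p = 0.0175), and at DM 48h its difference of 0.05 did not pass. The TEAD cofactor Vgll3 rose at DM 24h (0.43, adjusted p = 0.0421). At DM 48h the SRF partner Elk4 (-0.545), Tead2 (-0.48), Wwtr1 (-0.41) and Tead1 (-0.38) fell. The calls of Tead4, Elk4 and Tead2 held in 22 of 22 alternatives, and those of Yap1, Vgll3, Wwtr1 and Tead1 were lost in some, with adjusted p up to 0.2. More genes of the list passed at DM 24h with any 1 GM library left out, and fewer with any 1 DM 24h library left out. At DM 48h fewer passed with any 1 DM 48h library left out. The share of all tested genes in these fits is not given. Mkl1, Mkl2 and Tead3 did not pass at either time, with log2 differences between -0.12 and 0.18.

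**Figure D5:**
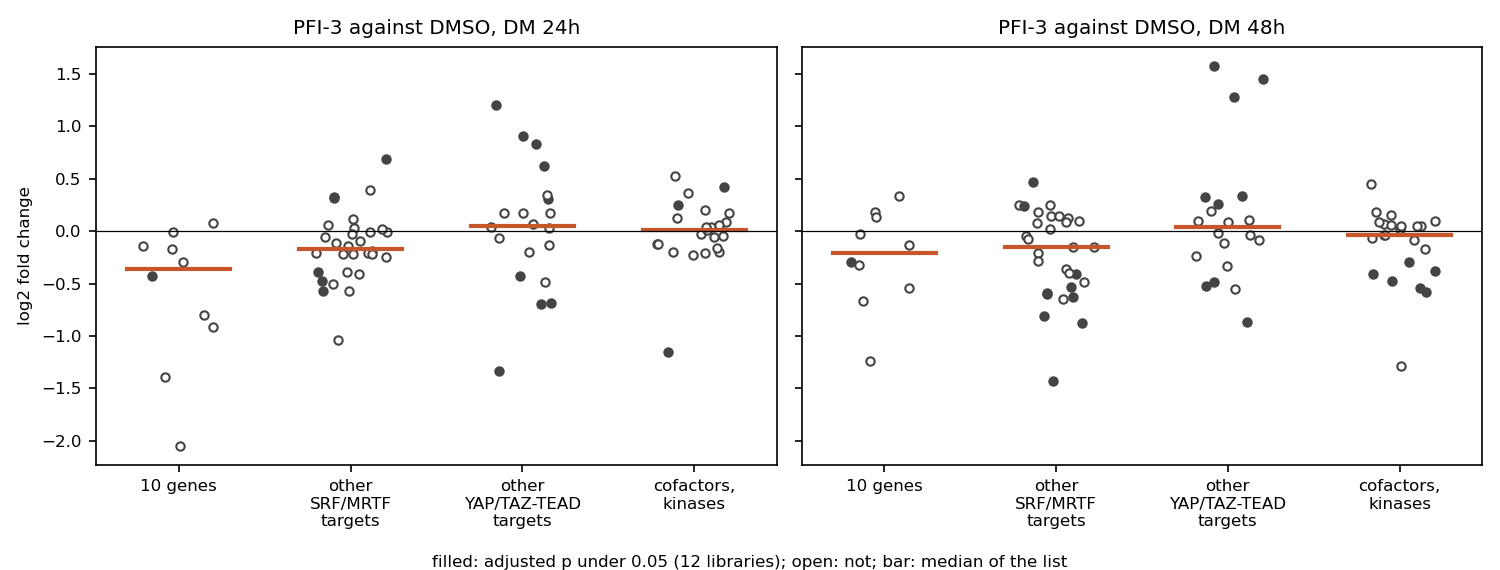
Log2 fold change of PFI-3 against DMSO for each tested gene of the 4 lists at DM 24h and DM 48h (points; filled, adjusted p under 0.05 in the fit of 12 libraries; bar, median of the list). The 10 genes and the SRF and MRTF targets have medians below 0 at both times, and the YAP and TAZ targets spread to both sides.

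The 5 genes whose log2(CPM + 1) followed Cnn1 most closely over the 12 libraries, among 10366 genes that averaged at least 5 CPM, were Tsr1 (Pearson r = 0.982), Serbp1 (0.981), Tnpo3 (0.978), Pwp1 (0.977) and Frmd6 (0.977). Tsr1 had 170 and 123 CPM in GM DMSO, 119 and 104 CPM in GM PFI-3, and 60.6 to 86.5 CPM in DM. Of the other 9 genes described here, Tagln ranked highest at 69 (r = 0.954), followed by Cnn2 at 205 (0.934) and Ctgf at 354 (0.917). The libraries fall into 3 stages and share them across genes, so these values describe a common course over stage and carry no test.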

How the data were processed

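RNA from C2C12 cells was sequenced in 12 libraries, and 1 table per library was deposited. Each table gives an expected count and an FPKM value per gene, which the authors' provider computed, per the file headers. The submitters' processing notes name mm10, Bowtie, RSEM, HISAT, StringTie, Cufflinks and DESeq2 without their roles, and versions are not given in the sources used here. Groups and letters come from the sample titles. A gene missing from a table was taken as 0.

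After rounding to integers, the expected counts went into edgeR 4.0.16 (R 4.3.3, TMM scaling, filterByExpr, quasi-likelihood test), in 1 model of 6 groups over 12 libraries, without a replicate block. P-values were two-sided, adjusted by the Benjamini-Hochberg method over all 12545 tested genes, and called under 0.05. The SE of a log2 difference was its absolute value divided by the square root of the F statistic of that test. Alternatives were a replicate block, fits of only the 8 DM libraries or of the libraries compared, RLE size factors, DESeq2 1.42.0, no filter, a mean of at least 10 counts, limma 3.58.1 on log2(FPKM + 1) and log2(FPKM + 0.1), and leaving out each library. Counts of the 12545 tested genes were simulated for PFI-3 at DM 24h, with 200 genes changed 2-fold, and 12329 passed the filter on the simulated counts. On these, edgeR on 12 libraries recovered 91.5% of the changed genes, and 5.18% of its calls were false. Apart from those changes, the simulation gave every group the same mean and spread for a gene. It held no stage differences and no wider spread in GM. The recovered share therefore does not tell how many such changes the fit of the real libraries finds.

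The 10 genes, the lists (other SRF/MRTF targets, other YAP/TAZ-TEAD targets, cofactors and upstream kinases, and marker lists) and the tests were chosen with earlier results of these data known. Genes named from a list are the 3 called genes that rose most and the 3 that fell most at each DM time, if they averaged 5 CPM or more, plus Mkl1, Mkl2, Yap1, Wwtr1 and Tead1 to Tead4. One further list is not reported here. The 5 genes most like Cnn1 were named by Pearson correlation. Python 3.11.15, pandas 2.3.3 and matplotlib 3.10.9 served for tables and plots.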

Additional observations from a re-analysis of the deposited data

Results flagged for a closer look

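The PFI-3 effect differed between DM 48h and DM 24h, by the interaction test of edgeR on 12 libraries, for 6 of the 73 tested genes of the pathway lists (3 of 30 SRF and MRTF targets, 2 of 20 YAP and TAZ targets and 1 of 23 cofactors and kinases). This is 8.22%, against 12.1% of all tested genes. Junb, Foxf2, Csrp2 and Cald1 are also among the genes named for a large effect at only 1 of the DM times. That choice favours a difference between the times. F3 and Tead4 were named at both. Values are the log2 effect at DM 48h minus that at DM 24h. Time in differentiation and length of exposure to PFI-3 cannot be told apart in them. Junb had -0.734 (adjusted p = 0.00371), Foxf2 -0.724 (0.00882) and Csrp2 -0.5253 (0.012). F3 had 0.6677 (adjusted p = 0.0164), Tead4 0.5655 (0.0261) and Cald1 0.2962 (0.0498). The Junb and Foxf2 differences passed in 22 of 22 alternatives, and the others in 11 to 18 of them.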

How the results depend on the processing

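Counts of the 10 genes called moved with the libraries in the fit. At DM 24h the count was 1 in the main analysis, 8 on the 8 DM libraries, 8 on only the libraries compared, with or without a replicate block, and 2 with DESeq2, without the filter and with limma on log2(FPKM + 0.1). It was 1 to 6 with 1 library left out. At DM 48h the count was 1, then 8 in each of those 3 smaller fits, 2 with either limma fit and 1 to 4 with 1 library left out. From DM 24h to DM 48h with DMSO it was 4, then 8 in each smaller fit, and 2 to 5. For the difference of the PFI-3 effect it was 0, then 6 on the 8 DM libraries and on the libraries compared, 7 with a replicate block added, 1 with DESeq2 or limma on log2(FPKM + 1), and 0 to 2. SRF/MRTF targets called went from 5 to 20 at DM 24h (1 to 14 with 1 library left out) and from 10 to 23 at DM 48h (4 to 15) in each smaller fit. The count of YAP/TAZ-TEAD targets, 9 at each time, moved by less than 1.5 times in these fits, and was 4 to 10 and 6 to 10 with 1 library left out. Cofactors and kinases went from 3 to 11 on the libraries compared and to 10 on the 8 DM libraries at DM 24h (1 to 6), and from 6 to 10 at DM 48h (3 to 7). With 1 library left out, the genes among the 10 that did not overlap numbered 6 to 10 in GM and 8 to 10 for DM 24h against GM. Leaving out a library can only keep or raise that count for any set of genes. The matching share of all tested genes is not given, so nothing is read from the rise. The cause of these shifts in the counts was not tested. The share of all tested genes called is given only for the main fit and the fit of the 8 DM libraries. No called value changed direction under any alternative run.

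Libraries with the same letter deviated together in GM (r = 0.472 over 10656 genes) but not at DM 24h (0.014) or DM 48h (0.0317). The letters were not taken as pairs at any stage, so the GM descriptions leave this sharing out of account. A replicate block gave 3 of the 10 genes at DM 24h and changed 2 of 68 calls in all. Cnn1 rests on 4 to 42 counts in DM, which limits its precision.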

Other observations

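Actg2, smooth muscle gamma-actin, was singled out after its values were seen. It had 202 CPM (of the unadjusted library total) in GM DMSO library A and 74.8 in B, 65.8 and 43.8 in GM PFI-3, and 36.7 and 37.6 at DM 24h with DMSO. At DM 24h with PFI-3 it had 18.7 in both libraries, and at DM 48h 11.6 and 13.1 with DMSO and 14.7 and 16.4 with PFI-3. The wide gap between the GM DMSO libraries was thus present for this actin too, and with PFI-3 it was lower in GM, lower at DM 24h and higher at DM 48h, without overlap. The log2 differences of -1.04 at DM 24h and 0.25 at DM 48h did not pass the edgeR test on 12 libraries.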
